A study of Mus musculus with 20 samples.

Results

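The 8 genes described here control how glucose enters a heart muscle cell and is trapped there: the facilitative glucose transporters Slc2a1 (GLUT1), Slc2a3 (GLUT3), Slc2a4 (GLUT4), Slc2a8 (GLUT8) and Slc2a12 (GLUT12), the hexokinases Hk1 and Hk2, and Txnip, an arrestin-like protein that restrains glucose uptake. They were chosen by name for their role in glucose uptake, out of 49005 genes with deposited counts, and all 8 were among the 18069 genes with enough counts to be tested. The RNA came from whole hearts of wild type C57BL/6 mice aged 12 weeks, in 4 groups of 5 libraries: high-fat females, chow females, high-fat males and chow males. All groups shared strain, genotype and age. The high-fat libraries carry the name PA, which was read as the high-fat diet because the series names only chow and a high-fat diet. Neither the composition of the diet nor its duration, nor whether each library came from a separate mouse, is given in the sources used here. The p-values therefore measure the spread between these libraries, which may be technical. The library of chow male 4 was counted per gene and not per exon piece, so 4 chow males were compared.

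Facilitative glucose transporters let glucose cross the plasma membrane down its concentration gradient. In resting heart muscle GLUT4 is held in vesicles inside the cell, and insulin or contraction sends it to the surface, whereas GLUT1 resides mainly at the surface and carries the basal uptake. Hexokinase then phosphorylates glucose to glucose 6-phosphate, which cannot leave through the transporters and feeds glycolysis, glycogen and the pentose phosphate pathway. Txnip binds thioredoxin, promotes the removal of GLUT1 and GLUT4 from the cell surface, and is itself induced by glucose. An adult heart draws most of its energy from fatty acids and lowers its use of glucose when fat is plentiful.

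On the high-fat diet Slc2a1 and Slc2a4 were called lower in both sexes, and Hk2 and Hk1 were called lower in males. With 1 library left out at a time, the male call of Hk1 was lost in 14 of 19 fits. The calls of Slc2a4 were lost in 9 of 19 in females and 8 of 19 in males. No member was called in the direct test of whether the diet change differed between the sexes. Slc2a1 had the largest fall, to 0.66 of the chow level in females and 0.66 in males, and it was higher in females than in males on either diet. Txnip, by contrast, had its lowest mean in chow males and did not pass the test for diet in either sex. With all 19 libraries, Slc2a3, Slc2a8 and Slc2a12 passed in no comparison.

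The sequences just upstream of the annotated starts are given for the members whose levels moved, since Slc2a1, Hk1 and Hk2 were lower together in high-fat males while Txnip was not, and since Hk1 has a pair of annotated starts that the counts tell apart. They are RefSeq promoter windows of GRCm38.p6, and 6 of the 8 members matched, with 7 windows. Slc2a3 and Slc2a4 had no match. Each run reads 5′ to 3′ on the gene's strand, and bases inside a counted exon were removed. Capitals mark the GC box GGGCGG and the CCAAT box CCAAT on either strand, and in Txnip also a pair of CACGAG boxes 5 bases apart.
Slc2a1, chr4:119108495-119108710, plus strand: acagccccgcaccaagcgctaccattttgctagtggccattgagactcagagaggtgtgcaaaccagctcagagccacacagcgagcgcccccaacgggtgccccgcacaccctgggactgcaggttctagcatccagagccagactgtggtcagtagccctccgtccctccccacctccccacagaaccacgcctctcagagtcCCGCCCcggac
Hk2, chr6:82774455-82774704, minus strand: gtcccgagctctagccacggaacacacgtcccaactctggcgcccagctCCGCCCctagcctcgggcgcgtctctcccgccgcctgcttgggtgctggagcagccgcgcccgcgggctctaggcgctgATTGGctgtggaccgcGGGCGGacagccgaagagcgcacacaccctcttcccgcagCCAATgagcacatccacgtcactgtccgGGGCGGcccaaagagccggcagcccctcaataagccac
Hk1, inner start, chr10:62340543-62340671, minus strand: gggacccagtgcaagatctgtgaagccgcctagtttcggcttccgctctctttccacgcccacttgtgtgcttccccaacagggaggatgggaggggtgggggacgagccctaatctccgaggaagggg
Hk1, outermost start, chr10:62379909-62380158, minus strand: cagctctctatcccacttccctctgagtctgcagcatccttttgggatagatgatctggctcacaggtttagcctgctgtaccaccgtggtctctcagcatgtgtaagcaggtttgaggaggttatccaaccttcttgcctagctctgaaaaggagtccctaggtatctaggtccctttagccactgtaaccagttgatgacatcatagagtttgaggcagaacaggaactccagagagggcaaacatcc
Txnip, chr3:96557707-96557956, plus strand: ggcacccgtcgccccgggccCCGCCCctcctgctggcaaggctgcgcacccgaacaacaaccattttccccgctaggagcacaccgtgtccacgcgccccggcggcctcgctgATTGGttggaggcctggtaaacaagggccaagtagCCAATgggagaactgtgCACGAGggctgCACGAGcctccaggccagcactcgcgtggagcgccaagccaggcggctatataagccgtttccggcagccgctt

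Over the full window of 250 bases before the start, Hk2 held 3 GC boxes and 2 CCAAT boxes, Txnip 1 GC box and 2 CCAAT boxes, and Slc2a1 2 GC boxes, of which 1 lies in the printed bases. Neither Hk1 window held any of the motifs. Slc2a8 held 4 CCAAT boxes, 2 of which overlap, and Slc2a12 held none. Of 32851 RefSeq windows of the same length, 32.7% held a GC box and 33.8% a CCAAT box, so these matches are common. The E-box CACGTG was in 6.0% of the windows and in none of the members' windows. In mice and humans Txnip is known to be induced through paired E-box-like elements that bind ChREBP and its partner Mlx, which sense sugar phosphates. The pair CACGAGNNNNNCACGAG, whose letters were taken from the Txnip window itself, lies 85 to 69 bases before the Txnip start and occurred in 1 of the 32851 windows, that of Txnip. A match describes letters, not a bound site.

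The 19 libraries compared held 57805110 to 85794067 counts, and CPM below is a count relative to the library's total after TMM scaling. High-fat females 4 and 5 stood apart from the other libraries, at 70.01 and 97.01 on the first principal component against -16.3 to 0.19, and their nuclear RNA Malat1 was at 117 and 63.9 CPM against 1132 to 1533 CPM. Many results that involve high-fat females are therefore also given without both. The defining markers of heart muscle were abundant, with 7 cardiomyocyte genes summing to 78310 to 95730 CPM. Adipocyte markers summed to 0.342 to 2.63 CPM, and 6 skeletal muscle markers to 2.63 to 5.02 CPM. Among the latter, the fast myosins Myh1, Myh2 and Myh4 averaged 0.0215, 0.0236 and 0.000857 CPM, so the other markers held nearly all of that sum. Sex-linked genes matched the labels, but high-fat females 4 and 5 stood apart here too. The 5 sex-linked genes summed to 18.1 and 10.7 CPM in them, against 114.1 to 144 CPM in the other females. Of these genes Eif2s3y was called higher by diet in females, a call lost without both libraries. In whole hearts, fewer cells of a type and less RNA per cell cannot be told apart.

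Per kilobase of counted exon, the order of the members was the same at most places in all 19 libraries. Txnip, with a mean of 165 CPM per kb, and Slc2a4, with 107 CPM per kb, held the 2 highest places, and Txnip was the higher in 16 of 19 libraries. They exchanged places between groups: Txnip was above Slc2a4 in 5 of 5 high-fat females, 5 of 5 chow females, 5 of 5 high-fat males and 1 of 4 chow males. Next came Hk2, at 65.6 CPM per kb, and then Hk1, at 28.6 CPM per kb, in every library. Slc2a8 and Slc2a1 followed at 5.64 and 4.67 CPM per kb and exchanged the next 2 places, with Slc2a1 the higher in 0 of 5 high-fat females, 4 of 5 chow females, 0 of 5 high-fat males and 0 of 4 chow males. Slc2a12 at 1.36 and Slc2a3 at 0.256 CPM per kb, the GLUT3 of neurons, were last in every library. Reads that span several exon pieces count in each, so these levels overstate genes of many short pieces. Taken over its longest exon piece alone, of 2192 bp, Hk1 was at 0.134 CPM per kb, below Slc2a12 at 1.07. That piece held a mean of only 20.6 counts, against 1215.2 in the most-counted piece of 801 bp, at 21.7 CPM per kb. The longest piece therefore does not stand for the level of Hk1.

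**Figure D1:**
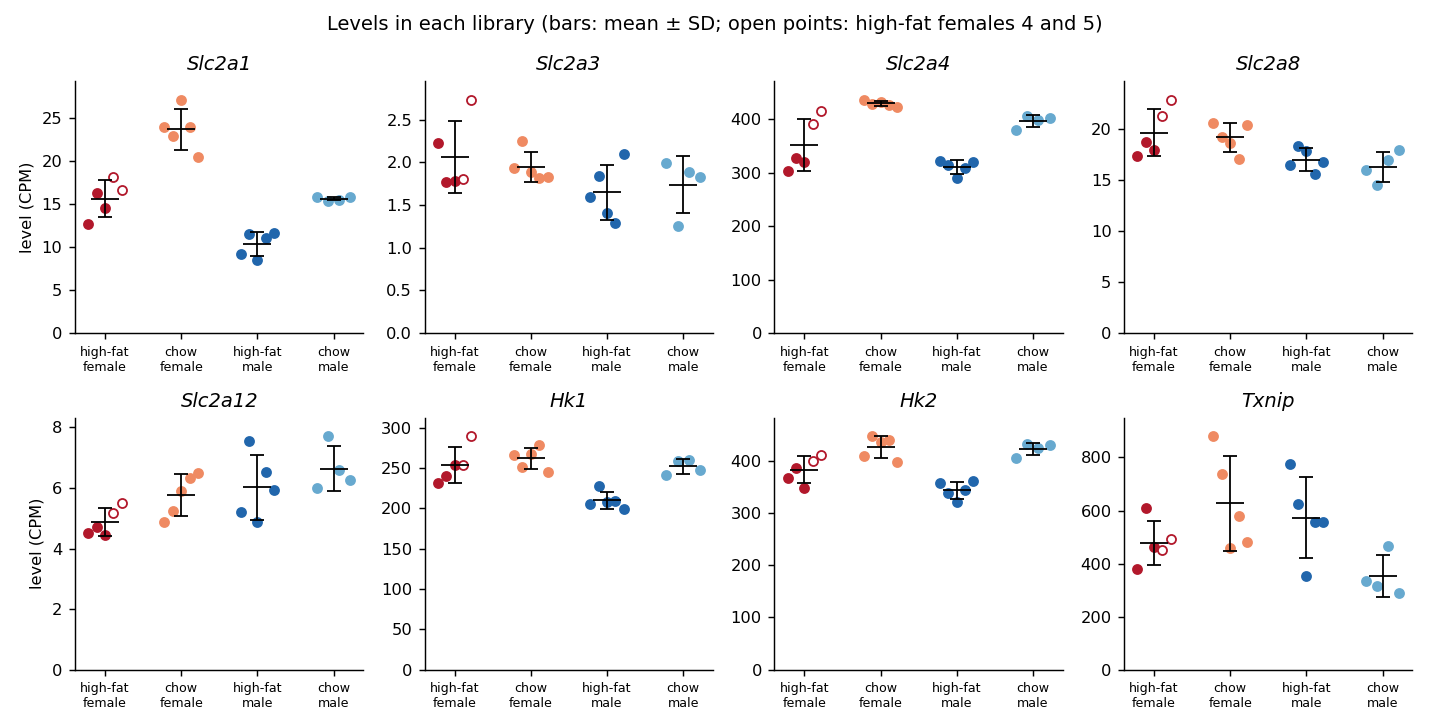
Level of each of the 8 genes in CPM (linear axes from 0), with 1 point per library for high-fat females, chow females, high-fat males and chow males, and the mean ± SD as a bar. Slc2a1 and Slc2a4 are lower in all high-fat libraries than in all chow libraries of the same sex; open points are high-fat females 4 and 5.

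Slc2a1 had 12.7, 16.3, 14.6, 18.2 and 16.6 CPM in high-fat females 1 to 5, against 24.0, 22.9, 27.2, 24.0 and 20.5 CPM in chow females 1 to 5. The highest high-fat female lay below the lowest chow female. In males it had 9.17, 11.5, 8.47, 11.1 and 11.6 CPM on high fat, against 15.8, 15.4, 15.5 and 15.9 CPM in chow males 1, 2, 3 and 5. Again the groups did not overlap, and the 4 chow males lay within a span of less than 1 CPM. The log2 change was -0.60 ± 0.10 (SE; edgeR adjusted p = 0.00601) in females and -0.60 ± 0.11 (SE; edgeR adjusted p = 0.0139) in males, from the quasi-likelihood fit of edgeR, with adjustment after Benjamini and Hochberg over all genes tested, as for every adjusted p in this account. Leaving out high-fat females 4 and 5 gave a female change of -0.71 ± 0.11 (SE; edgeR adjusted p = 0.00115). In males the call was lost without chow male 1, with an adjusted p of 0.0558. It was also lost in the fits on longest and on most-counted exon pieces, with 0.123 and 0.06 at a log2 change of -0.51 in either. For Slc2a1 both are the same piece, of 1085 bp. Fitted on the female libraries alone, the female change of -0.59 had an adjusted p of 0.0758.

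Slc2a4, the insulin-regulated transporter, had 304, 327, 320.3, 392 and 416 CPM in high-fat females, against 437, 429, 433, 427 and 422 CPM in chow females. High-fat females 4 and 5, the libraries that stood apart, were the highest of their group, and still lay below every chow female. High-fat males had 321, 315, 289, 308 and 321 CPM and chow males 380.1, 406, 399 and 402 CPM, again without overlap. The log2 change was -0.29 ± 0.07 (SE; edgeR adjusted p = 0.0316) in females and -0.35 ± 0.07 (SE; edgeR adjusted p = 0.0275) in males. Without high-fat females 4 and 5 the female change was -0.44 ± 0.04 (SE; edgeR adjusted p = 1.69e-05). Both calls were near the threshold: with 1 library left out at a time, the female call was lost in 9 of 19 fits, with adjusted p up to 0.0742, those without any 1 of the 5 chow females, chow males 1 and 3, or high-fat females 2 and 3. The male call was lost in 8 of 19, with adjusted p up to 0.112, those without any 1 of the 4 chow males or of high-fat males 2 to 5. On the libraries of the 2 female groups alone the female change had an adjusted p of 0.248. Both calls were also lost with no filter on low counts (adjusted p = 0.0673 in females and 0.0513 in males) and in the fit on longest exon pieces (0.121 and 0.069). The longest piece of Slc2a4, of 1030 bp, is also its most-counted one. In the fit on most-counted pieces both calls held, at -0.31 and -0.39, with edgeR adjusted p of 0.0201 and 0.0104.

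Hk2, the hexokinase of insulin-responsive muscle, had 366, 386, 348, 399 and 411 CPM in high-fat females, against 408, 446, 436, 439 and 398 CPM in chow females. The female groups overlapped, since high-fat females 4 and 5 reached the level of the lowest chow females. In high-fat males it had 357, 337, 319.8, 344 and 360.2 CPM, against 406, 431, 423 and 429 CPM in chow males, and these groups did not overlap. The log2 change was -0.30 ± 0.05 (SE; edgeR adjusted p = 0.0127) in males and passed the test, and it was -0.15 ± 0.05 (SE; edgeR adjusted p = 0.108) in females, where it did not. It was -0.22 ± 0.05 (SE; edgeR adjusted p = 0.0174) and passed without high-fat females 4 and 5. The male call was lost without chow male 2 or chow male 5, with adjusted p of 0.0658 and 0.0513, and on the longest exon piece, with 0.0979.

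Hk1, the hexokinase found in most tissues, had 206, 228, 208, 209 and 199 CPM in high-fat males, against 242, 259, 260.0 and 248 CPM in chow males, with no overlap. In high-fat females it had 232, 239.8, 254, 254 and 289 CPM, against 267, 252, 268, 279 and 246 CPM in chow females, and these ranges overlapped, with the highest value in high-fat female 5. The log2 change was -0.26 ± 0.06 (SE; edgeR adjusted p = 0.0473) in males and -0.05 ± 0.06 (SE; edgeR adjusted p = 0.665) in females. The male call was lost in 14 of 19 fits with 1 library left out, with adjusted p up to 0.209, and held in those without chow female 4, chow female 5, high-fat female 1, high-fat female 5 or high-fat male 2. It was lost too with median-ratio scaling (adjusted p = 0.0783), with no filter on low counts (0.119) and with a block by replicate number (0.0957). The same held on the most-counted (0.0827) or the longest exon piece (0.826). The longest piece of Hk1 held a mean of only 20.6 counts. The female change without high-fat females 4 and 5 was -0.12 ± 0.05 (SE; edgeR adjusted p = 0.193).

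Txnip varied widely between libraries of a group, with coefficients of variation of 17.5% to 28.5%. High-fat females had 378, 608, 462, 453 and 491 CPM and chow females 879.5, 738, 458, 579 and 483 CPM, which overlapped. High-fat males had 775, 624, 354, 556 and 557 CPM and chow males 335, 316, 468 and 289 CPM. The male groups overlapped through high-fat male 3 and chow male 3. The log2 change was -0.39 ± 0.21 (SE; edgeR adjusted p = 0.307) in females and 0.70 ± 0.22 (SE; edgeR adjusted p = 0.217) in males, so that neither passed the test. On the male libraries alone the male change of 0.71 had an adjusted p of 0.0466. Without high-fat females 4 and 5 the female change was -0.38 ± 0.23 (SE; edgeR adjusted p = 0.356).

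The 3 transporters of low abundance did not pass the test for diet. Slc2a12, a second insulin-responsive transporter of muscle and heart, ranged over 4.45 to 5.50 CPM in high-fat females, 4.89 to 6.49 in chow females, 4.89 to 7.54 in high-fat males and 6.01 to 7.70 in chow males. Its log2 change was -0.24 ± 0.12 (SE; edgeR adjusted p = 0.27) in females and -0.14 ± 0.12 (SE; edgeR adjusted p = 0.927) in males. Slc2a8, an intracellular transporter, ranged over 17.3 to 22.8 CPM in high-fat females, 16.98 to 20.5 in chow females, 15.5 to 18.3 in high-fat males and 14.5 to 17.9 in chow males, with log2 changes of 0.04 ± 0.08 (SE; edgeR adjusted p = 0.838) and 0.06 ± 0.09 (SE; edgeR adjusted p = 0.999) in females and males. Slc2a3 ranged over 1.77 to 2.73 CPM in high-fat females, 1.82 to 2.25 in chow females, 1.29 to 2.10 in high-fat males and 1.25 to 1.998 in chow males, which is 72 to 180 counts a library. Its log2 change was 0.09 ± 0.16 (SE; edgeR adjusted p = 0.787) in females and -0.08 ± 0.17 (SE; edgeR adjusted p = 0.999) in males. The 95% confidence intervals for Slc2a8, -0.14 to 0.21 in females and -0.12 to 0.24 in males, were narrower than those for Slc2a3, -0.25 to 0.42 and -0.43 to 0.28.

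**Figure D2:**
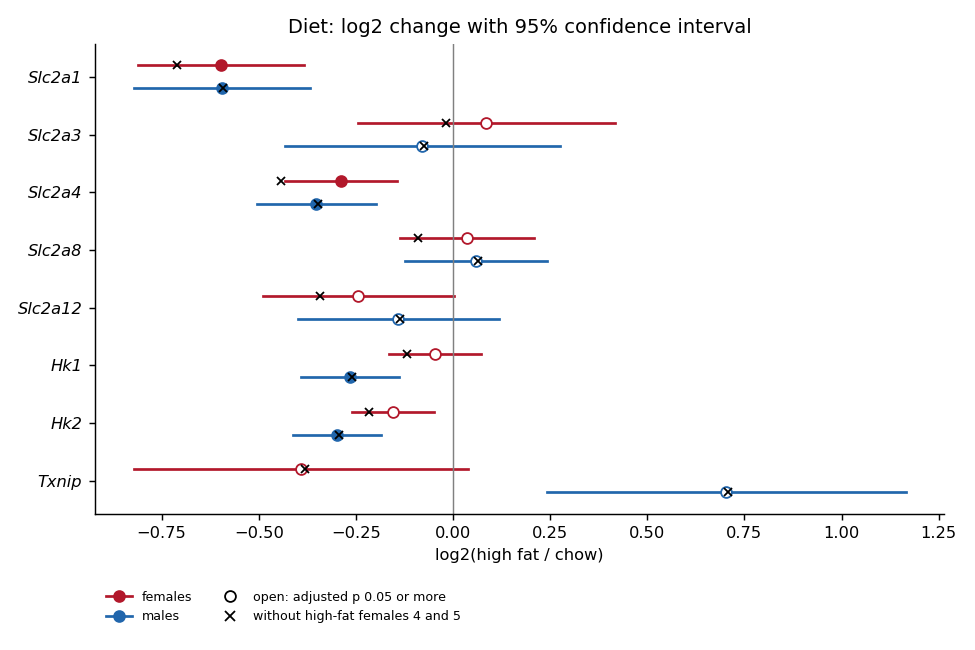
Log2 change on the high-fat diet against chow for each gene, in females (upper) and males (lower), with 95% confidence intervals; filled points passed an adjusted p of 0.05 and crosses give the value without high-fat females 4 and 5. Slc2a1 and Slc2a4 lie below 0 in both sexes, and Txnip lies below 0 in females and above 0 in males without passing the test in either.

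In females 2 of the 8 genes, Slc2a1 and Slc2a4, were called lower and none higher, where 0.863% of the 18069 genes tested were called lower and 2.53% were called in either direction. These were also the 2 members whose groups did not overlap, as was so, with high fat lower, for 1.90% of genes. In males 4 of 8, Slc2a1, Slc2a4, Hk1 and Hk2, were called lower and none higher, where 0.365% of genes were called lower and 0.764% in either direction. The groups of these 4 did not overlap, as was so, with high fat lower, for 3.98% of genes. The median log2 change of the members was -0.20 in females and -0.20 in males, beside -0.02 and 0.00 over all genes tested. Averaged over the sexes, the same 4 genes were called lower, where 1.20% of genes were called lower and 2.93% in either direction. That average log2 change was -0.60 ± 0.07 (SE; edgeR adjusted p = 0.000148) for Slc2a1, -0.32 ± 0.05 (SE; edgeR adjusted p = 0.00144) for Slc2a4, -0.23 ± 0.04 (SE; edgeR adjusted p = 0.002) for Hk2 and -0.16 ± 0.04 (SE; edgeR adjusted p = 0.0487) for Hk1. The call of Hk1 was lost in 16 of 19 fits with 1 library left out, with adjusted p up to 0.142, and held in those without chow female 5, high-fat female 5 or high-fat male 2. The same settings of scaling, filter, block and exon piece that ended its male call ended this one, with adjusted p of 0.0738 to 0.285. The other 3 calls held in all 19. Without both high-fat females 4 and 5 all 4 were called lower on average, Hk1 at -0.189 ± 0.035 (SE; edgeR adjusted p = 0.00187).

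Summed cardiomyocyte markers were lower in every high-fat male than in any chow male, and their female ranges overlapped only through high-fat females 4 and 5. Their sum was 78310 to 91340 CPM in high-fat females, against 87690 to 94750 CPM in chow females, and 80330 to 86040 CPM in high-fat males, against 88980 to 95730 CPM in chow males. High-fat females 4 and 5 were at 89900 and 91340 CPM, and the other 3 were at 78310 to 85290 CPM, below every chow female. With all libraries 1 of the 7 passed the test, Tnnt2 at a log2 change of -0.31 in females, and the median of the 7 was -0.12 in females and -0.15 in males. Without those libraries 4 of 7 were called lower in females, Tnnt2 (-0.33), Myl2 (-0.32), Tnni3 (-0.29) and Pln (-0.22), with adjusted p of 0.00187 to 0.0187, and none in males. Averaged over the sexes, Tnnt2 was called lower with all libraries, at -0.24 (edgeR adjusted p = 0.00684). Without high-fat females 4 and 5, 5 of 7 were called lower on average, Tnnt2, Myh6, Tnni3, Actc1 and Myl2. Endothelial markers summed to 1051 to 1148 CPM in high-fat females, against 896.5 to 1037 CPM in chow females, with 3 of 7 called higher, and to 1048 to 1128 CPM in high-fat males, against 961.6 to 1060 CPM in chow males, with none called. Of 6 fibroblast markers, 2 were called higher in high-fat females, with sums of 1180 to 1469 CPM against 987 to 1106 CPM in chow females. These endothelial and fibroblast calls were the same without high-fat females 4 and 5. Of 6 erythroid markers 1 was called higher, Slc4a1, with sums of 220.4 to 419.6 CPM in high-fat females, against 234.9 to 297.1 CPM in chow females. High-fat female 4 was the lowest, and without it and high-fat female 5 the count was 5 of 6, Slc4a1 (2.17), Alas2 (0.81), Hbb-bt (0.65), Hba-a1 (0.61) and Hbb-bs (0.59), with adjusted p of 0.00243 to 0.00637. Smooth muscle markers summed to 173.3 to 240.1 CPM in high-fat females, against 129.4 to 179.7 CPM in chow females. In males they summed to 140.6 to 201.7 CPM on high fat, against 126 to 131.7 CPM on chow. With all libraries 1 of 4, Acta2, was called higher averaged over the sexes (0.52, edgeR adjusted p = 0.0197), and none in either sex. Without high-fat females 4 and 5 Acta2 was called higher in males (0.59, adjusted p = 0.0387). The part of these cell types in the falls of Slc2a1, Slc2a4, Hk1 and Hk2 was not tested.

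Whether the diet changed a gene differently in females and males was tested directly, and of the 8 genes 0 were called. By edgeR 0 of the 18069 genes were called (0%), with 1839 at an unadjusted p under 0.05, and by DESeq2 59 genes were called, again with none of the 8. Txnip had the largest difference, a female change minus male change of -1.09 ± 0.30 (SE; edgeR adjusted p = 0.279), with an unadjusted p of 0.00185. For Hk1 the difference was 0.22 ± 0.08 (SE; edgeR adjusted p = 0.398), with an unadjusted p of 0.0164, so that the fall of Hk1 in males alone is not shown to differ from the change in females. For Slc2a1 it was -0.00 ± 0.15 (SE; edgeR adjusted p = 0.995), with a 95% confidence interval of -0.32 to 0.31, and for Slc2a4 it was 0.06 ± 0.10 (SE; edgeR adjusted p = 0.798), with -0.15 to 0.27. For Hk2 it was 0.14 ± 0.07 (SE; edgeR adjusted p = 0.523). Without high-fat females 4 and 5 edgeR again called none of the 8, with Txnip at -1.09 ± 0.31 (SE; edgeR adjusted p = 0.21).

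Between the sexes, the basal transporter Slc2a1 was higher in females on either diet, and no member was called lower. The per-library values above show no overlap: on high fat the lowest female had 12.7 CPM and the highest male 11.6, and on chow the lowest female had 20.5 CPM and the highest male 15.9. The log2 difference, female over male, was 0.60 ± 0.10 (SE; edgeR adjusted p = 0.00174) on high fat and 0.60 ± 0.11 (SE; edgeR adjusted p = 0.0049) on chow. Both calls held with each of the 19 libraries left out in turn, and without high-fat females 4 and 5 the values were 0.48 ± 0.10 (SE; edgeR adjusted p = 0.00623) on high fat and 0.60 ± 0.10 (SE; edgeR adjusted p = 0.000436) on chow. High-fat females had a mean of 15.7 ± 2.11 CPM (SD, n = 5) and chow males one of 15.7 ± 0.214 CPM (SD, n = 4), a pair that was not tested.

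On high fat Hk1 was also higher in females, with all 5 females above all 5 males, at a log2 difference of 0.28 ± 0.06 (SE; edgeR adjusted p = 0.00602), or 0.20 ± 0.05 (SE; edgeR adjusted p = 0.0163) without high-fat females 4 and 5. That call was lost when the high-fat libraries alone were fitted, at 0.27 with an adjusted p of 0.0563. It was also lost on the longest exon piece, which held a mean of only 20.6 counts, with 0.444. On chow it was 0.06 ± 0.06 (SE; edgeR adjusted p = 0.744). Txnip was higher in females on chow, by 0.83 ± 0.22 (SE; edgeR adjusted p = 0.0454), although chow female 3 lay below chow male 3. That call was lost in 11 of 19 fits with 1 library left out, with adjusted p up to 0.155, those without chow females 1, 2 or 4, chow males 1, 2 or 5, high-fat females 3 or 4, or high-fat males 2, 4 or 5. It was lost too with median-ratio scaling (adjusted p = 0.0503), with no filter on low counts (0.058), with a block by replicate number (0.0854) and on the longest exon piece (0.051). On high fat the Txnip difference was -0.26 ± 0.20 (SE; edgeR adjusted p = 0.389), with the opposite sign. In all, 2 of 8 members were called on high fat, both higher in females, where 10.3% of genes were called and 6.40% higher in females. Their groups did not overlap, as was so, with females higher, for 4.80% of genes. On chow 2 of 8 were called, both higher in females, where 3.22% of genes were called and 1.73% higher in females. The groups did not overlap for Slc2a1 and Slc2a4, as was so, with females higher, for 5.66% of genes. The members' median log2 difference was 0.19 on high fat and 0.14 on chow, beside 0.01 and 0.01 over all genes tested.

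Slc2a4 did not pass on either diet, at 0.18 ± 0.07 (SE; edgeR adjusted p = 0.101) on high fat and 0.12 ± 0.07 (SE; edgeR adjusted p = 0.487) on chow, although every chow female lay above every chow male. Hk2 was at 0.15 ± 0.05 (SE; edgeR adjusted p = 0.0596) on high fat and 0.01 ± 0.05 (SE; edgeR adjusted p = 0.974) on chow. Left out singly, high-fat female 1 brought Slc2a4 and Hk2 on high fat past the threshold, with adjusted p of 0.0285 and 0.0446, and high-fat female 3 did so for Hk2, with 0.037, as did a filter of 1 CPM in 5 libraries, with 0.0471. Slc2a12 had the opposite sign, at -0.31 ± 0.12 (SE; edgeR adjusted p = 0.0989) and -0.20 ± 0.12 (SE; edgeR adjusted p = 0.459), and did not pass. Slc2a8 was at 0.21 ± 0.08 (SE; edgeR adjusted p = 0.106) on high fat and 0.23 ± 0.09 (SE; edgeR adjusted p = 0.169) on chow, the second of which passed without high-fat females 4 and 5, at 0.24 ± 0.07 (SE; edgeR adjusted p = 0.0354). Slc2a3 was at 0.32 ± 0.16 (SE; edgeR adjusted p = 0.181) and 0.16 ± 0.17 (SE; edgeR adjusted p = 0.745). With both high-fat females 4 and 5 left out, most of these differences on high fat shrank. Slc2a4 was then at 0.025, Hk2 at 0.091, Slc2a8 at 0.082 and Slc2a3 at 0.219, with edgeR adjusted p of 0.762, 0.265, 0.553 and 0.446. Slc2a12 went the other way, to -0.40, with 0.0536.

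**Figure D3:**
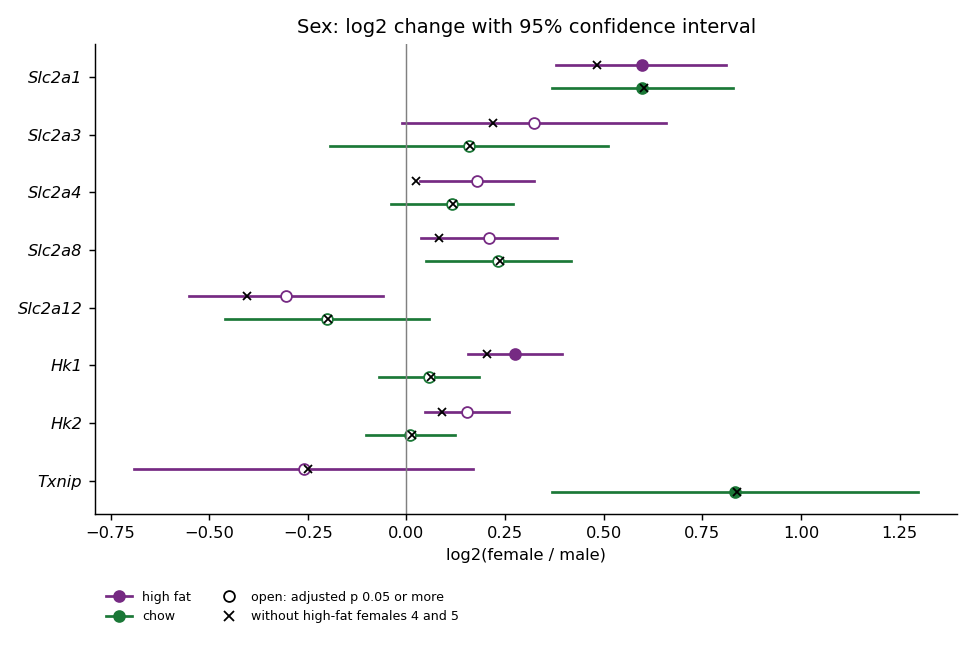
Log2 difference of females over males for each gene on high fat (upper) and chow (lower), with 95% confidence intervals; filled points passed an adjusted p of 0.05 and crosses give the value without high-fat females 4 and 5. Slc2a1 lies near 0.60 on both diets, and Txnip lies above 0 on chow and below 0 on high fat.

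Clock genes and fibroblast markers moved with sex in these libraries. Of 8 time-of-day genes, 5 were called higher and 2 lower in females on each diet. Dbp, a clock output factor, had 78.2 to 137 CPM in high-fat females, against 10.8 to 19.4 CPM in high-fat males, and 72.6 to 111 CPM in chow females, against 7.78 to 11.2 CPM in chow males. Arntl, the clock activator BMAL1, had 6.54 to 10.4 CPM in high-fat females, against 25.2 to 35.0 CPM in high-fat males, and 8.90 to 14.6 CPM in chow females, against 34.6 to 39.9 CPM in chow males. The time at which hearts were taken is not given in the sources used here. Of 6 fibroblast markers, 4 were called higher in females on high fat and 2, Lum and Tcf21, on chow, with the same calls without high-fat females 4 and 5. Their sums were 1180 to 1469 CPM in high-fat females, against 1011 to 1116 CPM in high-fat males, and 987 to 1106 CPM in chow females, against 958 to 1029 CPM in chow males. The macrophage marker Cd68 was called higher in females on high fat, by 0.61 (adjusted p = 0.000496). The endothelial receptor Flt1 was called lower in females, at -0.22 on high fat and -0.28 on chow, the first of which was lost without high-fat females 4 and 5, with an adjusted p of 0.106. In that fit Egfl7, another endothelial marker, was called higher in females on high fat (0.26) and Adgre1 of macrophages lower on chow (-0.29). No cardiomyocyte marker was called by sex in either fit. The part of the clock and of these cell types in the sex differences of Slc2a1, Hk1 and Txnip was not tested. By diet, Arntl was called lower in females, at a log2 change of -0.65 (adjusted p = 0.0235), and averaged over the sexes, at -0.46 (0.0191), where Dbp was called higher, at 0.52 (0.0316). With high-fat females 4 and 5 left out, Dbp was called higher in males, at 0.76 (adjusted p = 0.0118), and Cry1 lower, at -0.30 (0.0356), and Arntl in females was at -0.54 (0.049). The part of these shifts in the members' changes by diet was not tested.

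The exon pieces of a gene gave a second view of its direction, although they share reads and are not replicates. Among pieces with a mean of at least 10 counts, the mean of high-fat females was below that of chow females in 16 of 16 pieces of Slc2a1, 26 of 26 of Slc2a4 and 24 of 24 of Hk2. High-fat males were below chow males in the same 16, 26 and 24 pieces and in 30 of 30 of Hk1. For Hk1 in females it was 26 of 30. Txnip ran in opposite directions throughout, with high-fat females below chow females in 20 of 20 pieces and high-fat males below chow males in 0 of 20. Slc2a3 had only 1 such piece, and 70.2% of its counts lay in thinner ones.

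Hk1 could be followed to its 5′ end, where the sequences printed above belong. The exon at its inner start, chr10:62340013-62340542 (530 bp), held 192 to 369 counts in each library, 5313 in all. The 15 pieces annotated further upstream held 0 to 9 counts per library, 48 in all, and the exon at the outermost start held 0 in every library. A count of 0 allows up to 3 counts, or 0.0565% of the counts of the inner exon, for counting error only. That share is of raw counts and not per base. The outermost exon, in pieces of 56 and 38 bp, is much shorter than the inner one, so the bound per base is higher. The inner exon was at 4.30 ± 0.74 CPM in high-fat females and 4.12 ± 0.27 CPM in chow females (SD, n = 5 each). It was at 3.57 ± 0.29 CPM in high-fat males (n = 5) and 3.97 ± 0.12 CPM in chow males (SD, n = 4).

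**Figure D4:**
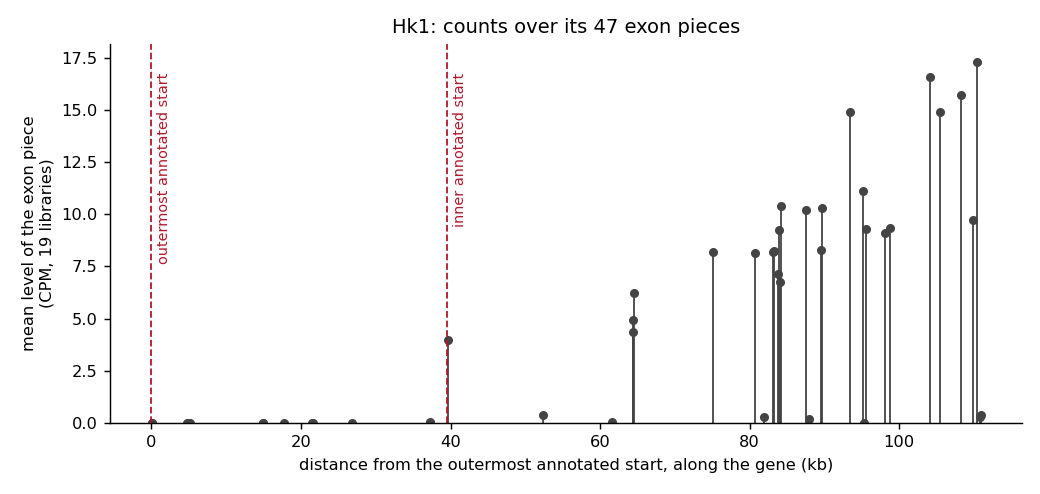
Mean level in CPM over 19 libraries of each of the 47 Hk1 exon pieces (linear axis), at its distance in kb along the gene from the outermost annotated start; dashed lines mark both annotated starts. Pieces before the inner start are at or near 0, and the exon at the inner start is at 3.99 CPM.

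Relative amounts of partner genes are given as a description. Per kilobase, Slc2a4 exceeded Slc2a1 by 22.7 ± 1.98 times in high-fat females and 18.4 ± 1.70 times in chow females (SD, n = 5 each), and by 30.6 ± 3.87 times in high-fat males (n = 5) and 25.6 ± 0.98 times in chow males (SD, n = 4). Hk2 exceeded Hk1 by 2.16 ± 0.15 times in high-fat females, 2.32 ± 0.13 in chow females, 2.35 ± 0.19 in high-fat males and 2.40 ± 0.06 in chow males. The hexokinase ratios of high-fat and chow libraries overlapped in either sex. The transporter ratios overlapped in females, with 20.3 in high-fat female 2 and 20.8 in chow female 5. In males they did not overlap, at 27.6 to 35.3 on high fat and 24.2 to 26.6 on chow.

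Genes with a like pattern were sought among 9666 genes over 17 libraries, without high-fat females 4 and 5, by Pearson's r of log2(CPM + 0.5), which includes the group differences all libraries share. Slc2a4 was among the 3 nearest of Hk2, at r = 0.92, while Hk2 was not among the 3 nearest of Slc2a4, and Slc2a1 had r = 0.88 with Slc2a4, 0.86 with Hk1 and 0.83 with Hk2. Txnip stood aside, at r = 0.17 with Slc2a1, 0.06 with Slc2a4, -0.06 with Hk1 and -0.06 with Hk2. The nearest for Slc2a4 were Pcx (pyruvate carboxylase) at r = 0.95, Gcat at 0.94 and Zfyve21 at 0.93. For Slc2a1 they were Abcc8, the sulphonylurea receptor of the ATP-sensitive potassium channel, at r = 0.91, Nfkbib at 0.90 and the non-coding Mhrt at 0.90. For Hk2 they were Clip4 at r = 0.93, Slc2a4, and Ung at 0.91, and for Hk1 they were Frem2 at 0.92, Ripor2 at 0.90 and the insulin-signalling kinase Akt1 at 0.90. The best match was weaker for Slc2a12 (Bola3, r = 0.86), Slc2a8 (Dazap2, r = 0.85), Slc2a3 (Ccar2, r = 0.80) and Txnip (Cnnm3, r = 0.78).

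Other genes of glucose entry and use mostly did not pass the test for diet with all 19 libraries. Of 20 genes of GLUT4 vesicle trafficking, 1 was called in each sex, Trarg1, a protein of GLUT4 vesicles. Trarg1 had 1.53, 1.67, 1.56, 1.64 and 2.13 CPM in high-fat females, against 1.20, 0.958, 1.35, 1.17 and 1.24 CPM in chow females. In males it had 1.80, 1.47, 1.52, 1.85 and 1.68 CPM on high fat, against 0.925, 1.06, 0.984 and 1.05 CPM on chow. The groups did not overlap, and the log2 change was 0.53 ± 0.12 (SE; edgeR adjusted p = 0.0219) in females and 0.73 ± 0.13 (SE; edgeR adjusted p = 0.00872) in males. Trarg1 thus rose where Slc2a4, whose protein it accompanies, fell, but without high-fat females 4 and 5 its female change was 0.42 ± 0.13 (SE; edgeR adjusted p = 0.0696) and its male change 0.73 ± 0.12 (SE; edgeR adjusted p = 0.00212). Between sexes, Rab13, Sort1 and Myo1c were called higher in females on high fat, Sort1 (sortilin) by 0.50 ± 0.09 (SE; edgeR adjusted p = 0.00198), and Rab13 and Vamp2 on chow. The fit without high-fat females 4 and 5 called further genes of the list. Tbc1d4 (AS160), which holds GLUT4 vesicles back until insulin acts, was called higher in males, at 0.28 (adjusted p = 0.0123), and on average, at 0.23 (0.00202). Sort1 at -0.21, the insulin-signalling kinase Akt2 at -0.12 and Rhoq at -0.12 were called lower on average, with adjusted p of 0.0235, 0.0125 and 0.0432. Between sexes it called Sort1 higher on chow as well, and Rab10 and Stxbp3 lower in females on high fat, and it lost the call of Myo1c, with an adjusted p of 0.0607.

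Of 9 genes on the routes that lead from glucose 6-phosphate, 2 were called in females. H6pd, which opens the pentose phosphate pathway of the endoplasmic reticulum, rose by 0.32 ± 0.07 on the log2 scale (SE; edgeR adjusted p = 0.0313), with 25.6 to 34.0 CPM in high-fat females against 21.5 to 25.0 CPM in chow females. Ugp2, which makes the UDP-glucose for glycogen, changed by -0.43 ± 0.11 (SE; edgeR adjusted p = 0.0456), with 169 to 267 CPM in high-fat females against 283 to 330.0 CPM in chow females, and high-fat female 5 was the lowest. Without high-fat females 4 and 5 the female change was 0.18 for H6pd and -0.34 for Ugp2, with adjusted p of 0.0845 and 0.0462. None of the 9 was called in males with all libraries, but in the fit without those 2 Gys1, the glycogen synthase of muscle, was called lower in males, at -0.20 (adjusted p = 0.0276), and on average, at -0.14 (0.0228), as was Ugp2 on average, at -0.23 (0.034). Gys1 was there also lower in females than in males on chow, at -0.27 (adjusted p = 0.00156). Among 16 regulators of transcription, Mef2d, of the family that drives Slc2a4 in muscle, was called higher in females, at 173 to 208 CPM on high fat against 146 to 160.0 CPM on chow (log2 change 0.30 ± 0.06, SE; edgeR adjusted p = 0.0122), and none in males. Without high-fat females 4 and 5 the change of Mef2d was 0.23 in females and 0.21 in males, with adjusted p of 0.0247 and 0.0363. In females over males on high fat, Ugp2 was called lower, and Mlx and Usf1 higher. The sugar sensor Mlxipl (ChREBP) was at a log2 change of -0.32 in females and -0.24 in males, with adjusted p of 0.109 and 0.576. Averaged over the sexes without high-fat females 4 and 5, Mlxipl was called lower, at -0.20 (adjusted p = 0.0421). That fit also called Ppargc1a lower in females on high fat (-0.57) and chow (-0.50), and Nr4a1 higher on chow (1.38).

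With all 19 libraries no gene of 3 further lists was called in any comparison: 6 tested of 7 other Slc2a transporters, 2 tested of 6 sodium-glucose transporters, and 10 of the thioredoxin system and its arrestins, which include Arrdc4, the closest relative of Txnip. Arrdc4 had log2 changes of 0.21 in females and 0.16 in males, with adjusted p of 0.476 and 0.967. Without high-fat females 4 and 5, Slc5a1, the sodium-glucose transporter SGLT1, with a mean of 0.371 CPM, was called lower by diet in females, at -1.51 (adjusted p = 0.0145), and on average, at -1.03 (0.00442), and lower in females than in males on high fat, at -1.32 (0.0185). Txn2, the mitochondrial thioredoxin, was called lower by diet in females, at -0.18 (adjusted p = 0.0479), and on average, at -0.18 (0.00359). Slc2a6 on high fat and Slc2a9 and Arrdc3 on chow were then called higher in females. Among 9 other enzymes of glucose phosphorylation and its reversal, 5 were tested and none was called by diet. Slc37a4, the glucose 6-phosphate carrier of the endoplasmic reticulum, was called higher in females on high fat, at 0.31 ± 0.08 (SE; edgeR adjusted p = 0.02), a call lost without high-fat females 4 and 5, with an adjusted p of 0.0921.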

How the data were processed

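Whole mouse hearts were kept in RNAlater, and polyA RNA was sequenced on an Illumina NovaSeq, per the labels' protocols. The deposited values are whole counts. The submitters' processing notes name Salmon 1.5.1, DESeq2 1.32.0 and GRCm39, but 19 of the deposited files hold counts per exon piece, in coordinates of which 91.3% of genes match GENCODE vM21 of GRCm38. Reads across several pieces are counted more than once there. For chow male 4 the deposited counts are per gene, with a total of 31686627, and this library was not fitted, although the design had assumed all 20. Counting by strand is stated nowhere in the sources used here.

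Counts were summed per gene. Pieces carrying several gene IDs were given to 1 gene where exon positions allowed, and the rest, 1.35% to 1.49% of counts, were set aside. No member shares a piece with another gene. Of 49005 genes, 18069 passed edgeR's expression filter. Genes were tested by the quasi-likelihood F-test of edgeR 4.0.16 (R 4.3.3) in 1 model of the 4 groups, with TMM scaling, 15 residual degrees of freedom and Benjamini-Hochberg adjustment over all 18069 genes, called under 0.05. A direct test of diet by sex, the average over sexes, and sex on each diet used the same fit. Log2 changes are high fat over chow and female over male. Scripts were tested on simulated data.

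The members, gene lists, motifs and alternatives were chosen with earlier results of these data known. By the rule used, all 8 members are named, and from each list the called genes, at most 4 per list and comparison, except for a result that is not reported here. Named for likeness are the 3 genes of highest Pearson's r of log2(CPM + 0.5), among those that average 5 CPM or more. The alternatives changed 1 choice at a time: the tool (DESeq2 1.42.0), the scaling (median-ratio size factors), the filter (none, or at least 1 CPM in 5 libraries), the samples fitted (those compared alone, all but high-fat females 4 and 5, all but 1 library), the block (by replicate number) and the part of the gene (its longest exon piece or, added after the data were seen, its most-counted piece). Libraries with the same replicate number did not deviate together (r of deviations from group means -0.173 to 0.244), so the numbers were not taken as pairs. No 2 libraries of a group agreed within sampling noise. Promoter sequences are from RefSeq, GRCm38.p6. Depth was 57805110 to 85794067 counts per library, and since a read can count several times, floors from counts cover counting error only.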

Additional observations from a re-analysis of the deposited data

Results flagged for a closer look

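Slc2a3 in chow female 2, at 2.25 CPM, lay apart from the other 4 chow females, at 1.82 to 1.93 CPM, by Dixon's test for a single outlying sample. This was 1 of 32 combinations of gene and group tested, and chance flags about 1 in 20. Slc2a3 passed the test in none of the comparisons.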

How the results depend on the processing

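Of 410 recomputed log2 changes of the members, 372 kept their direction and side of the threshold, 25 lost the call, 4 gained it and 9 changed sign. The fits with 1 library left out are not in this tally. Most results in it were not called with all 19 libraries, so had no call to lose. Genes called numbered 457 for diet in females, 138 in males, 0 for diet by sex, 530 averaged, 582 for sex on chow and 1866 on high fat. DESeq2 called 972, 255, 59, 837 and 901 for diet in females, diet in males, diet by sex, the average and sex on chow. With no filter, 195, 84, 351, 351 and 1108 genes were called for diet in females, diet in males, the average, sex on chow and sex on high fat, and the members called were 1 for diet in females, 2 in males and 1 for sex on chow. Fitting only the groups compared called 21 genes for diet in females, 572 in males, 1538 for sex on chow and 547 on high fat, with 0 members for diet in females and 1 for sex on high fat. Median-ratio scaling called 1 member for sex on chow. Without high-fat females 4 and 5, 906, 474, 1549 and 1916 genes were called for diet in females, diet in males, the average and sex on chow. There Slc2a3 was at -0.018 and Slc2a8 at -0.091 for diet in females, Slc2a4 at -0.093 for diet by sex, and Slc2a3 at -0.046 and Slc2a8 at -0.014 on average. The longest exon piece called 165, 44, 198, 241 and 1023 genes for diet in females, diet in males, the average, sex on chow and sex on high fat, and 1, 0, 1 and 1 members for diet in females, diet in males, sex on chow and sex on high fat, with Hk2 at -0.011 for sex on chow. The most-counted piece called 254, 90, 1 and 359 genes for diet in females, diet in males, diet by sex and sex on chow, and 2 members for diet in males, with Slc2a3 at 0.122 there and at -0.111 for diet by sex. Fewer reads per gene enter with single pieces; the cause of the other shifts was not tested. With the replicate block, 85 genes were called for diet in males and 1 member for sex on chow, and Slc2a1 was at 0.021 for diet by sex. The block took the call from Hk1 for diet in males (-0.27) and on average (-0.16) and from Txnip for sex on chow (0.80), and changed no other member's call. With 1 library left out, genes called ranged from 219 to 909 for diet in females, 42 to 198 in males, 0 to 5 for diet by sex, 356 to 655 averaged, 259 to 861 for sex on chow and 1096 to 3447 on high fat. Members called ranged from 1 to 2 for diet in females, 1 to 4 in males, 1 to 2 for sex on chow and 2 to 4 on high fat. Log2 changes that crossed 0, none of them called, were Slc2a3 for diet in females (-0.038 to 0.145) and on average (-0.058 to 0.043), Slc2a8 for diet in females (-0.027 to 0.075) and diet by sex (-0.09 to 0.023), Slc2a1 (-0.067 to 0.061) and Slc2a4 (-0.009 to 0.108) for diet by sex, and Hk2 for sex on chow (-0.009 to 0.033). Mean levels per kb with the most-counted piece were 113 for Txnip, 69.5 for Slc2a4, 66.9 for Hk2, 21.7 for Hk1, 3.33 for Slc2a8, 2.69 for Slc2a1, 1.07 for Slc2a12 and 0.263 for Slc2a3, in the same order. With the longest piece Hk2 was at 42.9, Hk1 at 0.134 and Slc2a3 at 0.0164 and the other 5 as with the most-counted, which put Hk1 below Slc2a12. That piece of Hk1 held a mean of only 20.6 counts.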
